A study of Mus musculus with 30 samples.

Results

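The genes of MHC class II antigen presentation were followed through postoperative ileus in the small bowel *muscularis externa* (*ME*) of mice. They were 7 genes chosen by symbol, *H2-Aa*, *H2-Ab1*, *H2-Eb1*, *Cd74*, *Ciita*, *H2-DMa* and *H2-DMb1*, of 24601 genes in the table of total *ME* RNA and 26179 genes in the *RiboTag* tables. All 7 were listed in both. In the mm10 assembly *H2-DMa* lies at chr17:34119541-34139101, *H2-DMb1* at chr17:34153072-34160230, *H2-Ab1* at chr17:34257689-34269419, *H2-Aa* on the minus strand at chr17:34282744-34287823 and *H2-Eb1* at chr17:34305867-34316674. *Ciita* lies on chromosome 16, at chr16:10480059-10528418, and *Cd74* on chromosome 18. All are annotated as protein coding genes.

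The study sequenced 3′ end libraries of total *ME* RNA and of mRNA bound to HA-tagged ribosomes (*RiboTag*) from naïve male mice and at 3 time points (IM3h, IM24h and IM72h, in hours) after intestinal manipulation, a mechanical handling of the bowel during abdominal surgery that causes postoperative ileus. All mice carried the HA-tagged *Rpl22* allele (B6N.129 Rpl22tm1.1Psam/J), which marks ribosomes only in cells with Cre activity. By the labels, every *RiboTag* library and the *ME* libraries at IM24h and IM72h came from the line B6 Tg(Sox10-icre/ERT2)388Wdr/J, with a tamoxifen-inducible Cre in cells that express the glial transcription factor *Sox10*, whereas the *ME* libraries of naïve mice and IM3h came from B6.Cg-Tg73.12Mvs/J(Gfap-cre). There were 3 naïve, 3 IM3h, 4 IM24h and 4 IM72h libraries of *ME* RNA, and 3, 4, 4 and 4 of *RiboTag* RNA. The same 3 naïve libraries of a fraction served all its comparisons, so these share their controls. The study counts its sequencing replicates as mice, and p-values measure the spread between these libraries.

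MHC class II molecules display peptides from endosomes to CD4+ T cells. *H2-Aa* and *H2-Ab1* encode the alpha and beta chain of I-A, and *H2-Eb1* the beta chain of I-E. *Cd74*, the invariant chain, escorts new dimers to the endosome, *H2-DMa* and *H2-DMb1* encode the H2-M dimer that exchanges its remnant for peptide, and *Ciita* is the transactivator that has no DNA-binding domain and works through factors bound to the X and Y boxes of class II promoters. Dendritic cells, B cells and many tissue macrophages express these genes constitutively, and interferon gamma induces them in other cells.

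The proximal promoters are shown because the X and Y boxes are where *Ciita* acts on the other members. RefSeq promoter windows, reaching from 250 bases before to 50 bases after an annotated start (build GRCm38.p6), were at hand for 4 of the 7 genes, *H2-Aa*, *H2-Eb1*, *H2-DMb1* and, with 2 windows, *H2-DMa*. The windows were searched on both strands for TGATTGG (the Y box core), AACNNATG (an X box core) and TGACGTCA (the cyclic AMP response element, which the X2 box resembles). The stretch from 110 to 31 bases before the start is printed 5′ to 3′ on the strand of the gene, with matches to these letters in capitals, for *H2-Aa* (minus strand, chr17:34287854-34287933), *H2-Eb1* (plus strand, chr17:34305757-34305836) and *H2-DMb1* (plus strand, chr17:34153081-34153160).
H2-Aa: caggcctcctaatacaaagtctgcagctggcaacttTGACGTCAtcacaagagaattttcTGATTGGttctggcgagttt
H2-Eb1: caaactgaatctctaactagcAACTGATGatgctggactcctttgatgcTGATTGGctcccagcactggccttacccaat
H2-DMb1: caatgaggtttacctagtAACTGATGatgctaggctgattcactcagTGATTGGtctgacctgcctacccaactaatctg

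*H2-Eb1* and *H2-DMb1* held the same 8 letters of the X box core, 28 and 29 bases upstream of the Y box core. *H2-Aa* lacked AACNNATG and had TGACGTCA 24 bases upstream of its Y box core. The Y box core began 50 bases before the start in *H2-Aa*, 61 in *H2-Eb1* and 63 in *H2-DMb1*. Of 32851 windows of all genes, 7.82% held the Y box core, 8.86% the X box core and 1.79% TGACGTCA. An X box core 20 to 35 bases upstream of a Y box core, a spacing set after these matches had been seen, occurred in 11 windows, and 5 of them belonged to class II genes, *H2-Eb1*, *H2-DMb1*, *H2-DMb2*, *H2-Ob* and *H2-Eb2*. Neither *H2-DMa* window held any of the 3 motifs, which says only that these letters were not in these windows. A match is a description of the sequence, and binding was not measured.

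**Figure D1:**
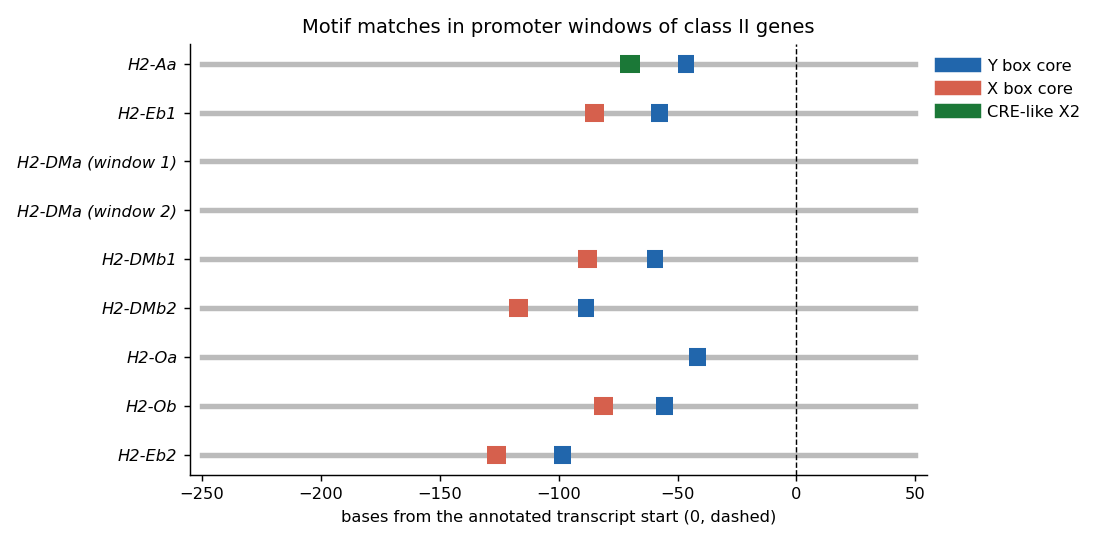
Positions of the motif matches in RefSeq promoter windows of class II genes, in bases from the annotated start (dashed line, 0), with 1 grey bar per window. The X box core or TGACGTCA lies upstream of the Y box core in 6 of 9 windows, *H2-Oa* has the Y box core alone and both *H2-DMa* windows hold none.

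Libraries of *ME* RNA held 6603125 to 12866014 estimated counts and *RiboTag* libraries 3010338 to 7899551. The rRNA-derived gene *AY036118* took 58.0% to 80.1% of the 4 *RiboTag* libraries at IM72h, which left 663819 to 1619436 counts for all other genes, against at least 4249937 in the naïve *RiboTag* libraries. It took 22.2% to 59.2% at IM24h and at most 14.0% in the other *RiboTag* groups. In *ME* libraries its share was 16.1% to 33.5% in naïve mice and 24.1% to 25.1% at IM3h, against 1.33% to 6.50% at IM24h and 2.34% to 3.69% at IM72h. With this and 3 other rRNA-derived genes left out, the count of class II genes called was the same in every comparison. As a check of the labels, the summed level of 8 glial marker genes per library total was 24.5-fold higher in *RiboTag* than in *ME* libraries of naïve mice, 24.9-fold at IM3h, 4.42-fold at IM24h and 1.27-fold at IM72h. *Sox10* itself was at 696 ± 295 CPM, its share of the scaled library total in parts per 1e6, in naïve *RiboTag* libraries and at 3.92 ± 5.38 at IM72h (SD, n = 3 and 4). *ME* libraries at IM72h, scaled separately, held 87.2 ± 44.6 CPM of it, and the summed glial list ranged from 189 to 1501 CPM among the *RiboTag* libraries of that time. The *RiboTag* libraries at IM72h thus go against their label for this marker, and every *RiboTag* value at IM72h below rests on them. Levels are CPM scaled by the TMM method within a fraction unless another scale is named. Since these are 3′ libraries of mixed tissue, levels are compared between groups and not between genes, and fewer cells of a type cannot be told apart from less RNA per cell.

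In total *ME* RNA 5 of the 7 class II genes, all but *H2-Eb1* and *Ciita*, were higher in every IM72h library than in every other library. The share of all genes for which this holds was not computed. Pairwise, 31.1% of all genes were higher in every IM72h than in every naïve library, and 21.6% than in every IM24h library. The alpha chain gene *H2-Aa* was at 104, 74.1 and 105 CPM in the 3 naïve libraries, 158, 144 and 111 in IM3h mice, 180.3, 116, 195 and 227 in IM24h mice, and 420.0, 539, 707 and 564 in IM72h mice. All libraries of each later group lay above all naïve libraries. Its partner *H2-Ab1* was at 96.2, 95.6 and 99.96 CPM in naïve mice, 161, 128 and 109 in IM3h mice, 144, 83.6, 123 and 125 in IM24h mice and 426, 453, 608 and 546 in IM72h mice. The IM24h values of this gene straddled the naïve ones. The invariant chain gene *Cd74* was at 108, 103 and 104 CPM in naïve mice, 187, 176 and 115 in IM3h mice, 138, 105, 160.1 and 131 in IM24h mice and 512, 526, 687 and 782 in IM72h mice. As for both I-A genes, no IM72h library came near the range of the other groups.

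*H2-DMa*, of the peptide-loading dimer, was at 8.21, 7.09 and 8.34 CPM in naïve mice, 7.60, 6.04 and 7.30 in IM3h mice, 13.5, 13.4, 14.1 and 28.3 in IM24h mice, and 34.99, 41.2, 38.1 and 35.3 in IM72h mice. It overlapped the naïve range at IM3h and lay above it from IM24h on. *H2-DMb1* was at 6.28, 8.38 and 6.65 CPM in naïve mice, 13.5, 12.2 and 9.46 in IM3h mice, 24.8, 23.1, 23.7 and 19.0 in IM24h mice and 41.1, 44.4, 47.1 and 27.3 in IM72h mice. It was above the naïve range in every later library. Its near-identical neighbour *H2-DMb2* can share reads with it, so the split between both is uncertain.

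*H2-Eb1*, the I-E beta chain gene, was at 80.5, 82.1 and 98.2 CPM in naïve mice, 133, 123 and 104 in IM3h mice, 80.7, 31.4, 105 and 204 in IM24h mice and 81.4, 135, 162 and 272 in IM72h mice. The IM24h libraries differed from each other more than the group means did, and 1 IM72h library lay within the naïve range. *Ciita* was at 3.26, 5.37 and 4.71 CPM in naïve mice, 2.53, 3.53 and 1.49 in IM3h mice, 5.27, 7.19, 6.09 and 16.6 in IM24h mice and 6.88, 8.86, 9.95 and 9.80 in IM72h mice. All IM72h libraries were above all naïve ones, and a single IM24h library was higher than any of them.

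**Figure D2:**
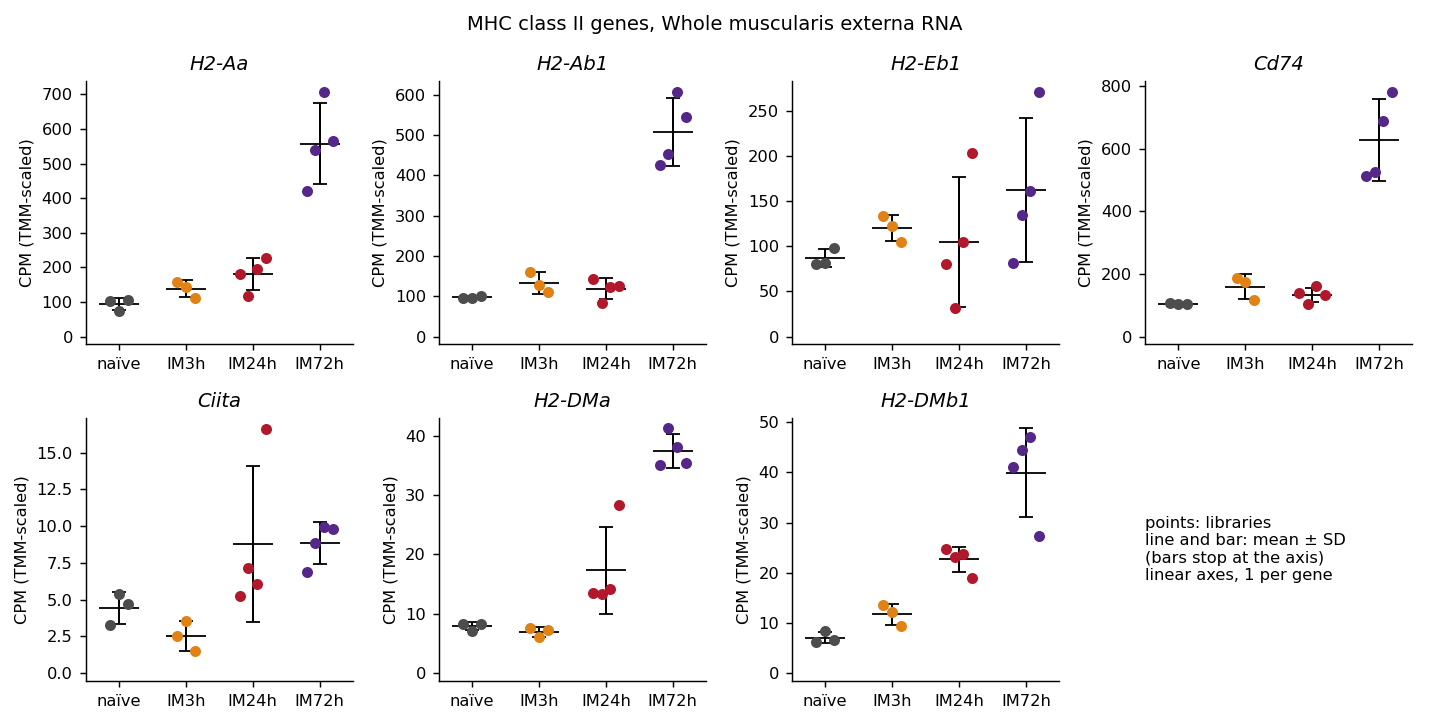
Level of the 7 class II genes in total *ME* RNA, in TMM-scaled CPM on linear axes, for 3 naïve, 3 IM3h, 4 IM24h and 4 IM72h libraries (points) with mean and SD. At IM72h *H2-Aa*, *H2-Ab1* and *Cd74* stood between 420.0 and 782 CPM, above all other libraries, whereas *H2-Eb1* ranged from 81.4 to 272.

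Against naïve mice, all 7 genes rose in *ME* RNA at IM72h (edgeR quasi-likelihood test, Benjamini-Hochberg adjusted p under 0.05), where 29.3% of the 16592 genes tested were called higher. The median log2 fold change was 2.35 over the 7 genes and 0.02 over all genes. Other scalings moved the median of all genes to between -0.58 and 0.98, and the median of the 7 genes stayed 2.33 to 2.45 above it. *Cd74* rose from 105 ± 2.89 to 627 ± 130.2 CPM (SD, n = 3 and 4), a log2 fold change of 2.55 ± 0.17 (SE, adjusted p = 1.09e-06). *H2-Aa* rose by 2.53 ± 0.20 (adjusted p = 2.75e-06), *H2-DMb1* by 2.48 ± 0.22 (adjusted p = 5.77e-06), *H2-Ab1* by 2.35 ± 0.15 (adjusted p = 7.58e-07) and *H2-DMa* by 2.20 ± 0.14 (adjusted p = 7.84e-07). These 5 genes, all of the I-A dimer, its chaperone and its loading dimer, also passed the threshold of the study, an unadjusted p under 0.05 with more than 2-fold change, as did 17.2% of all genes in this direction. All but *H2-Eb1* were higher in every IM72h library than in every naïve one, as were 31.1% of all genes. *Ciita* rose by 0.99 ± 0.24 (adjusted p = 0.00456) and *H2-Eb1* by 0.87 ± 0.31 (adjusted p = 0.0334), both less than 2-fold. The call of *H2-Eb1* was lost in 5 of the 7 fits that left out 1 library, with an adjusted p of up to 0.0965, and with DESeq2 (adjusted p = 0.0704). With reference genes as the scale neither *H2-Eb1* (adjusted p = 0.474) nor *Ciita* (adjusted p = 0.251) passed.

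Whether the changes of single genes differ from each other was not tested. The ratio of counts of 2 genes in the same library does not depend on scaling, and these ratios, looked at after the values had been seen, are given as a description. Counts of *H2-Eb1* per count of *H2-Aa* ran from 0.777 to 1.11 in naïve mice, 0.843 to 0.942 at IM3h, 0.270 to 0.898 at IM24h and 0.194 to 0.482 at IM72h. Those of *Ciita* ran from 0.0315 to 0.0725 in naïve mice, 0.0135 to 0.0245 at IM3h, 0.0292 to 0.0733 at IM24h and 0.0141 to 0.0174 at IM72h. Thus both ratios were lower in every IM72h library than in every naïve one, and for *Ciita* this was also so at IM3h. Counts of *H2-DMa* per count of *H2-Aa* were below the naïve range at IM3h too, at 0.0419 to 0.0659 against 0.0793 to 0.0957. Counts of *H2-Ab1* per count of *H2-Aa* overlapped between naïve mice, 0.929 to 1.29, and IM72h, 0.841 to 1.01. At IM24h they were below the naïve range, at 0.552 to 0.798. So were those of *Cd74* at IM24h, at 0.579 to 0.903 against 0.993 to 1.38 in naïve mice.

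By the labels, naïve and IM72h mice of the *ME* libraries differ in their Cre line, whereas the text of the study describes *Sox10*-Cre mice, and the numbers in the library names fall into separate ranges, so for IM24h and IM72h time and labelled line cannot be told apart in comparisons with naïve mice. IM72h and IM24h share the labelled line. Between these, 5 of the 7 genes were higher at IM72h, where 18.6% of 16281 genes were. *Cd74* was higher by 2.20 ± 0.19 (adjusted p = 2.73e-05), *H2-Ab1* by 2.06 ± 0.19 (adjusted p = 3.64e-05), *H2-Aa* by 1.60 ± 0.22 (adjusted p = 0.00031), *H2-DMa* by 1.08 ± 0.24 (adjusted p = 0.00494) and *H2-DMb1* by 0.78 ± 0.19 (adjusted p = 0.00688). *H2-Eb1* differed by 0.60 ± 0.48 (adjusted p = 0.356) and *Ciita* by -0.01 ± 0.36 (adjusted p = 0.981), which is less than the spread between libraries. All 5 were higher in every IM72h than in every IM24h library, as were 21.6% of all genes, and 4 passed the threshold of the study, as did 12.7%. All 5 calls held when any single library was left out, and with reference genes as the scale those of *H2-DMa* (adjusted p = 0.237) and *H2-DMb1* (adjusted p = 0.0941) were lost.

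At IM24h, 3 genes were higher than in naïve *ME*, *H2-DMb1* by 1.68 ± 0.22 (adjusted p = 0.000499), *H2-DMa* by 1.13 ± 0.33 (adjusted p = 0.0262) and *H2-Aa* by 0.93 ± 0.24 (adjusted p = 0.0155), where 15.6% of 16328 genes were. These 3 were higher in every IM24h library than in every naïve one, as were 20.1% of all genes, and 2 passed the threshold of the study, as did 12.1%. *H2-Ab1* differed by 0.29 ± 0.19 (adjusted p = 0.280), *Cd74* by 0.35 ± 0.17 (adjusted p = 0.144), *H2-Eb1* by 0.27 ± 0.47 (adjusted p = 0.696) and *Ciita* by 0.99 ± 0.47 (adjusted p = 0.140). Between 1 gene (without naïve library 2) and 5 genes (without IM24h library 2) were called when single libraries were left out. *H2-DMb1* kept its call in all 7 such fits, *H2-Aa* in 6 and *H2-DMa* in 4. The calls also depended on the scaling. With reference genes *H2-Aa* (adjusted p = 0.328) and *H2-DMa* (adjusted p = 0.269) did not pass, and with library totals 6 genes did, among them *H2-Ab1* (adjusted p = 0.00601), *Cd74* (adjusted p = 0.00276) and *Ciita* (adjusted p = 0.0150). With library totals 6265 of all genes were called higher, against 2554 with TMM scaling. The median of all genes moved between -0.35 and 0.66 over 10 fits with all libraries, and that of the 7 genes stayed 0.85 to 0.97 above it. Markers of other cells were higher at IM24h as well, 7 of 11 for macrophages and, of those tested, 4 of 5 for monocytes, 3 of 4 for dendritic cells and 5 of 5 for neutrophils, and their part in the class II values was not tested.

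IM3h and naïve *ME* mice share the labelled line and the range of names. Here 5 genes were higher, where 19.3% of 15333 genes were, all by less than 2-fold, so that 0 passed the threshold of the study against 11.3% of all genes. All 5 were higher in every IM3h library than in every naïve one, as were 23.4% of all genes. *H2-DMb1* differed by 0.79 ± 0.24 (adjusted p = 0.0316), *Cd74* by 0.66 ± 0.17 (adjusted p = 0.0148), *H2-Aa* by 0.60 ± 0.17 (adjusted p = 0.022), *H2-Eb1* by 0.52 ± 0.14 (adjusted p = 0.0151) and *H2-Ab1* by 0.50 ± 0.15 (adjusted p = 0.0265). *Ciita*, at -0.75 ± 0.42 (adjusted p = 0.201), and *H2-DMa*, at -0.13 ± 0.24 (adjusted p = 0.712), did not pass. These calls depended on the scaling. With library totals or without scaling 0 genes were called, and with 3 reference genes only *Ciita* was, as lower (adjusted p = 0.0447). With these reference genes 5364 of all genes were called lower, against 2058 with TMM scaling. The median of all genes moved between -0.41 and 0.02 with these choices, and the median of the 7 genes stayed 0.49 to 0.52 above it. When single libraries were left out, 0 genes were called without IM3h library 1, IM3h library 2 or naïve library 1, and 2 to 5 without each of the others. The 9 epithelial markers had the same order as the class II genes among the IM3h libraries. Their summed level was 1261, 436 and 219 CPM in IM3h libraries 1, 2 and 3, where the class II genes summed to 664, 593 and 458, against 166 to 426 CPM in naïve mice. The list had a median log2 fold change of 1.14, with 1 of 9 markers called higher. The monocyte markers had this order too, at 85.1, 65.8 and 45.8 CPM against 38.4 to 45.3 in naïve mice, with a median of 0.94 and 3 of 4 tested called higher. So did the macrophage markers, all below their naïve range, with a median of -0.23 and 1 of 11 called higher and 2 lower. Neutrophil markers did not have this order, at 30.1, 32.8 and 22.6 CPM against 3.98 to 7.13 in naïve mice. Their median was 5.79, with 2 of 3 tested called higher. Nor did dendritic cell markers, at 14.1, 25.6 and 19.4 CPM against 8.69 to 10.8, with 1 of 3 tested called higher. The part of these lists in the class II values was not tested.

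The *RiboTag* libraries gave another picture. *H2-Aa* was at 81.9, 39.3 and 55.2 CPM in naïve mice, 28.8, 17.1, 41.3 and 29.0 in IM3h mice, 31.6, 16.3, 1.32 and 30.8 in IM24h mice and 5.67, 49.9, 6.69 and 4.90 in IM72h mice. The IM24h libraries lay below the naïve ones, and at IM72h 1 library stood far above the other three. *H2-Ab1* was at 86.2, 61.0 and 70.4 CPM in naïve mice, 31.3, 35.3, 57.1 and 53.7 in IM3h mice, 41.1, 45.1, 27.3 and 35.7 in IM24h mice and 66.7, 79.6, 16.2 and 77.2 in IM72h mice. It was below the naïve range at IM3h and IM24h, and 3 of 4 libraries were back within it at IM72h. *Cd74* was at 64.8, 30.9 and 53.0 CPM in naïve mice, 27.0, 17.5, 41.8 and 21.0 in IM3h mice, 9.39, 42.3, 10.1 and 16.5 in IM24h mice and 50.1, 5.69, 0 and 17.2 in IM72h mice. The groups overlapped at each time point.

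*H2-Eb1* was at 66.1, 42.7 and 19.0 CPM in naïve *RiboTag* libraries, 12.0, 22.3, 25.3 and 36.2 in IM3h mice, 8.14, 24.4, 0 and 3.23 in IM24h mice and 0, 0.875, 0.955 and 0 in IM72h mice. It was at 2 counts or fewer in each IM72h library. *Ciita* was at 9.73, 9.33 and 4.84 CPM in naïve mice, 1.46, 0, 0 and 3.25 in IM3h mice and 8.64, 0, 0.441 and 0.19 in IM24h mice, and *H2-DMa* at 15.0, 8.09 and 3.89 in naïve mice, 2.84, 1.42, 4.05 and 2.23 in IM3h mice and 0.25, 0, 0 and 6.84 in IM24h mice. Neither had a count in any of the 4 libraries at IM72h. *H2-DMb1* was at 31.2, 19.9 and 12.7 CPM in naïve mice, 7.07, 5.22, 8.91 and 13.01 in IM3h mice, 8.77, 29.3, 14.5 and 7.79 in IM24h mice and 0, 48.6, 43.9 and 0 in IM72h mice. It was thus absent from 2 of the IM72h libraries and higher in the other two than in any naïve library.

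**Figure D3:**
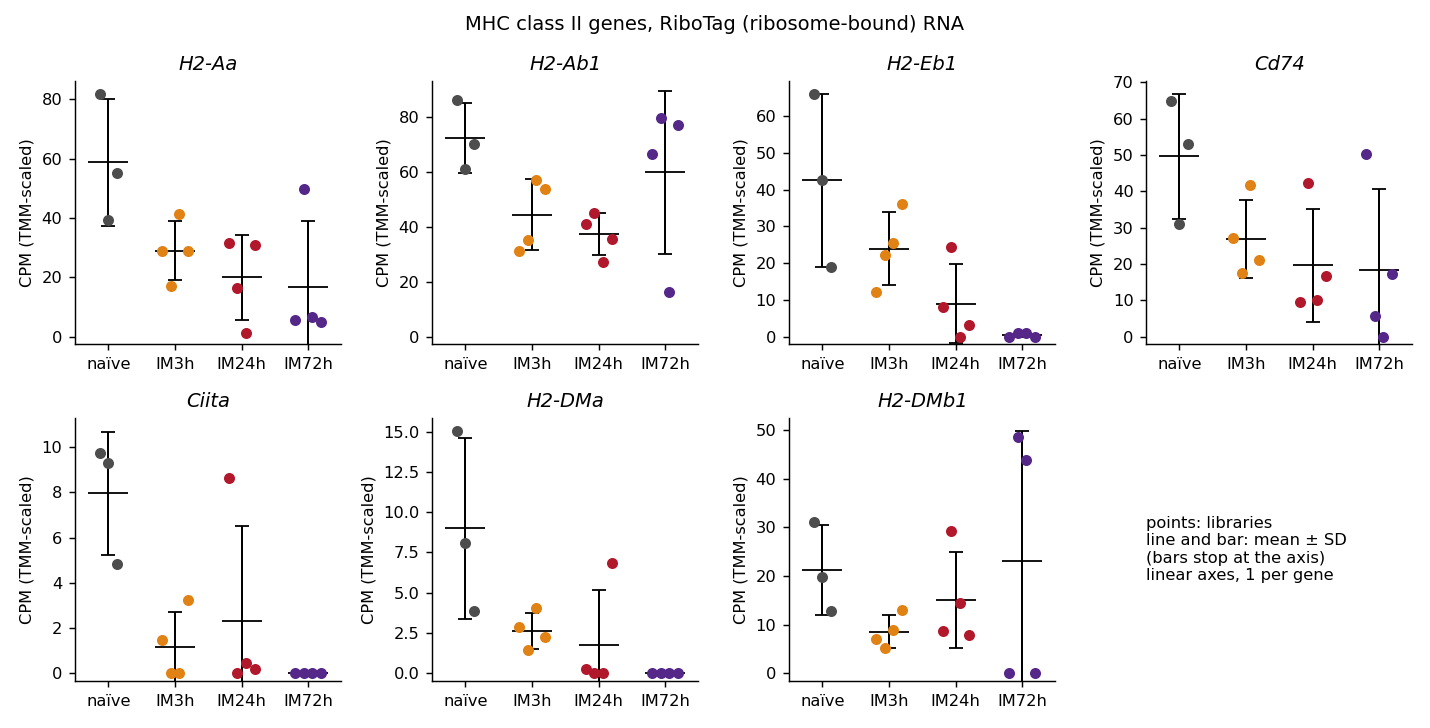
Level of the 7 class II genes in *RiboTag* RNA, in TMM-scaled CPM on linear axes, for 3 naïve and 4 IM3h, 4 IM24h and 4 IM72h libraries (points) with mean and SD, where bars stop at the axis. *Ciita* and *H2-DMa* had no count at IM72h, and *H2-DMb1* was at 0 in 2 libraries and at 43.9 and 48.6 CPM in the other two.

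In *RiboTag* RNA 0 class II genes were called higher than in naïve mice by edgeR or by DESeq2 at any time point, nor was any higher at an unadjusted p under 0.05. Of all genes 8.86% were called higher at IM3h, 0.366% at IM24h and 1.05% at IM72h. At IM3h all 7 fitted changes were below 0, with a median log2 fold change of -0.96 against -0.04 for all genes. By edgeR 0 passed after adjustment, where 4.44% of 16053 genes were called lower, 5 had an unadjusted p under 0.05, and DESeq2 called 0. The share of all genes at that unadjusted threshold alone was not computed, here or at IM24h. With library totals *H2-Aa*, at -1.15 (adjusted p = 0.0416), and *H2-DMb1*, at -1.48 (adjusted p = 0.0422), were called lower, as were 928 of all genes. *H2-DMb1* differed by -1.26 ± 0.45 (adjusted p = 0.0866) and *H2-Aa* by -0.96 ± 0.34 (adjusted p = 0.0896). *H2-DMa*, at -1.71 ± 0.69 (adjusted p = 0.132), and *H2-DMb1* passed the threshold of the study, as did 8.86% of all genes in this direction. *H2-Ab1* and *Ciita* were lower in all 4 IM3h libraries than in all naïve ones, as were 15.6% of all genes.

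At IM24h again all 7 fitted changes were below 0, with a median of -1.498 against -0.11 for all genes. By edgeR 0 genes passed after adjustment, where 0.131% of 15304 genes were called lower, and 1 gene, *H2-Ab1* at -0.93 ± 0.40 (adjusted p = 0.331), had an unadjusted p under 0.05. DESeq2 called 0 and gave no adjusted p for 1. *H2-Aa*, at -1.498 ± 0.750 (adjusted p = 0.431), and *H2-Ab1* were lower in all 4 libraries than in naïve mice, as were 15.0% of all genes.

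At IM72h 3 genes, *H2-Eb1*, *Ciita* and *H2-DMa*, were lower than in naïve mice after adjustment, where 15.1% of 13572 genes were. The same 3 passed the threshold of the study, as did 19.4% of all genes in this direction, and were lower in all 4 libraries than in naïve mice, as were 28.0%. These 3 genes passed the filter on low counts through the naïve libraries alone, so that a gene retained in this way had to differ, and without that filter 0 genes passed (adjusted p = 0.148 for all 3). The calls therefore give no support beyond the counts themselves. With at most 3 counts in every IM72h library, the fold changes are bounds against a count of 3. *H2-Eb1* was at least 22.9-fold lower (adjusted p = 0.0346), *H2-DMa* at least 4.85-fold lower (adjusted p = 0.0223) and *Ciita* at least 4.28-fold lower (adjusted p = 0.0165). At its naïve level, *H2-Eb1* would have given 44.6 to 97.3 counts in these libraries, against 0 to 2 observed, *H2-DMa* 9.43 to 20.6 and *Ciita* 8.34 to 18.2, against 0. Of all tested genes, 16.7% were at 3 counts or fewer in every IM72h library. The share was 1.69% among the 2548 genes with a naïve mean at least that of *H2-Eb1*, 11.05% for *H2-DMa* and 12.1% for *Ciita*. In 1 fit of all groups *Ciita* (adjusted p = 0.077) and *H2-DMa* (adjusted p = 0.0553) did not pass. Leaving out naïve library 1 left 2 genes called, naïve library 2 left 1 and naïve library 3 left 0. Across scalings the median of all genes ran from -2.60 to -0.28, and that of the 7 genes stayed below it by a difference of -1.54 to -1.18.

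The other four did not pass at IM72h. *H2-Aa* differed by -1.83 ± 1.12 (adjusted p = 0.449), *Cd74* by -1.42 ± 1.40 (adjusted p = 0.714), *H2-Ab1* by -0.27 ± 0.73 (adjusted p = 0.927) and *H2-DMb1* by 0.14 ± 1.88 (adjusted p = 0.986). Without IM72h library 2, *H2-Aa* differed by -3.44 and passed (adjusted p = 0.0213). Between IM72h and IM24h, 4 members could be tested and 0 were called, where 0.0% of 9344 genes were in either direction. None of them had an unadjusted p under 0.05, and DESeq2 called 0.

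**Figure D4:**
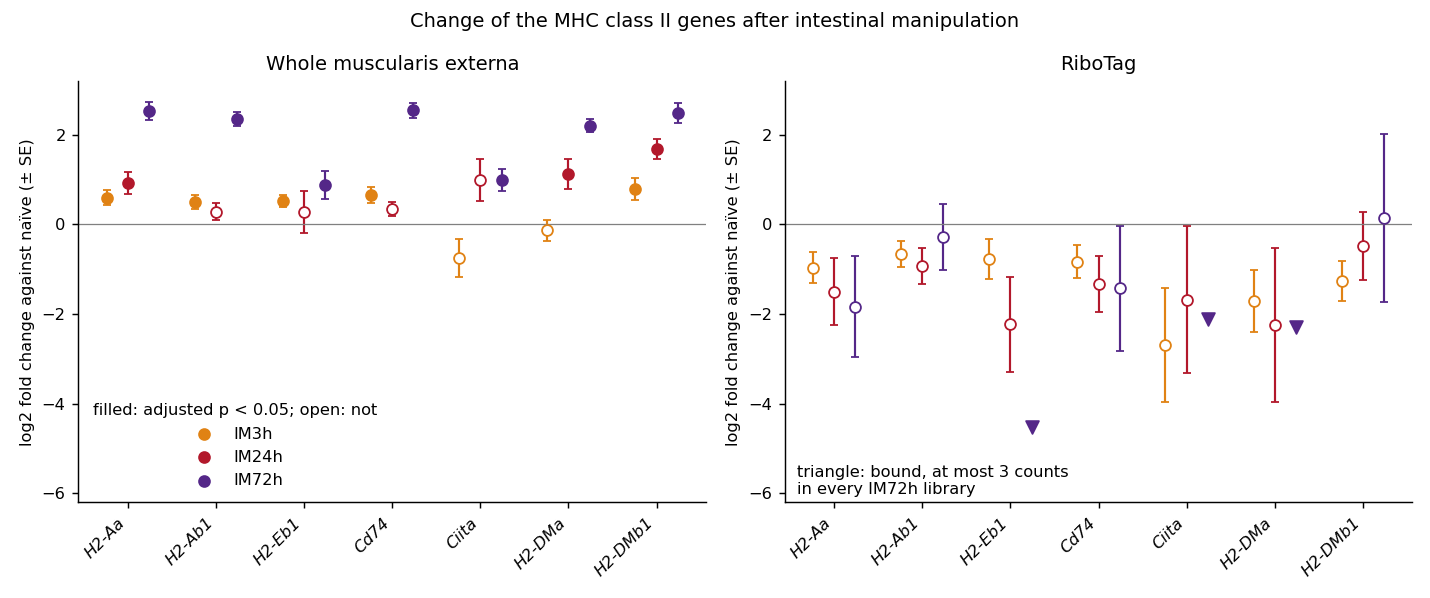
Log2 fold change against naïve mice with its SE for the 7 class II genes in *ME* (left) and *RiboTag* RNA (right), filled where the adjusted p was under 0.05. Triangles mark the bounds of 3 genes at 3 counts or fewer at IM72h. All *ME* points at IM72h are filled and above 0, and all *RiboTag* points at IM3h are open and below 0.

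Whether treatment moved the genes differently in both fractions was tested as an interaction on genes joined by symbol. At IM72h 6 of the 7 genes had a lower change in *RiboTag* than in *ME* RNA, where 21.1% of 16527 genes did, and all 6 passed the threshold of the study, as did 28.5%, with a median difference of -4.48 on the log2 scale against -0.98 for all genes. *H2-Ab1* differed by -2.86 ± 0.66 (adjusted p = 0.00572), *Cd74* by -4.24 ± 1.24 (adjusted p = 0.0233) and *H2-Aa* by -4.48 ± 1.07 (adjusted p = 0.00722). The call of *Cd74* was lost without *RiboTag* naïve library 1 and without each of *ME* naïve libraries 1, 2 and 3 (adjusted p = 0.0524 to 0.0677). Without *RiboTag* IM72h library 1 the difference of *Cd74* was -5.47, and without library 2 that of *H2-Aa* was -6.22. For the genes at the floor, the change differed by at least 42.8-fold for *H2-Eb1* (adjusted p = 0.000577), 23.0-fold for *H2-DMa* (adjusted p = 0.000503) and 8.55-fold for *Ciita* (adjusted p = 0.0006). *H2-DMb1* differed by -2.58 ± 1.85 (adjusted p = 0.385). In the same interaction the 8 glial markers had a median of -3.88 with 3 called lower, *Sox10*, *Gfap* and *Gfra2*, the macrophage markers a median of -1.28 with 2 of 10 lower, and the epithelial markers a median of -1.77 with 3 of 9 lower. Their part in the class II values was not tested. Since the labels give *Gfap*-Cre for naïve *ME* mice and *Sox10*-Cre for naïve *RiboTag* mice, a difference between lines cannot be told apart from this interaction.

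At IM24h the interaction was below 0 for all 7 genes with a median of -2.39 against -0.15 for all genes. By edgeR 0 were called after adjustment, where 0.263% of 17508 genes were called lower and 0.274% higher. An unadjusted p under 0.05 with more than 2-fold change was found for 6, as for 7.23% of all genes, and DESeq2 called 1, *H2-Ab1* (adjusted p = 0.0449). Of all genes DESeq2 called 454 lower. At IM3h the interaction was again below 0 for all 7, with a median of -1.47 against 0.02. By edgeR 0 were called, where 0.698% of 17617 genes were called lower and 0.959% higher. An unadjusted p under 0.05 with more than 2-fold change was found for 5, as for 5.18% of all genes, and DESeq2 called 3, *H2-Aa*, *Cd74* and *H2-DMb1* (adjusted p = 0.0272 to 0.0425). Of all genes DESeq2 called 396 lower.

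Set side by side on library totals, the level of the 7 genes in *RiboTag* libraries was 0.989 to 6.36 times that in *ME* libraries of naïve mice, with a median of 1.57. The median ratio fell below 1 afterwards, to 0.727 at IM3h, then 0.101 at IM24h and then 0.014 at IM72h. In naïve mice *H2-Ab1*, *Ciita* and *H2-DMb1* were higher in every *RiboTag* than in every *ME* library, and with 3 reference genes as the scale the median ratio was 0.994, *H2-Ab1* overlapped, and *H2-Eb1* and *Cd74* were lower in every *RiboTag* than in every *ME* library, at ratios of 0.633 and 0.614. At IM72h all 7 genes were lower in every *RiboTag* library, 6 of them also on the scale of the reference genes. The share of all genes without overlap between the fractions was not computed, neither for naïve mice nor for IM72h. By library total the ratio of summed macrophage markers fell as well, from 1.27 in naïve mice to 0.122 at IM72h. That of the glial markers fell from 24.5 to 1.27. By library total *H2-Eb1* was lower by at least 223-fold, *H2-DMa* by at least 51.4-fold and *Ciita* by at least 12.2-fold. These bounds hold on library totals only, of which *AY036118* took 58.0% to 80.1% in *RiboTag* and 2.34% to 3.69% in *ME* libraries at IM72h. The means of *H2-Eb1* differed 958-fold on this scale and 499-fold with reference genes. By exact two-sided permutation tests, adjusted over 28 comparisons, 0 passed, and the smallest adjusted p was 0.0615. The smallest p that these designs allow is 0.1 for naïve mice, 0.0571 at IM3h and 0.0286 later. With these minima none of the 28 comparisons could have passed after adjustment, so the 0 is no result about the genes. The tables were quantified separately, so a level set across them also carries that difference.

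The class II genes were set beside a list of 11 macrophage markers. The summed level of the list in *ME* RNA was 230 to 252 CPM in naïve mice, 194 to 225 at IM3h, 530 to 796 at IM24h and 1468 to 1779 at IM72h, with 10 of 11 markers called higher at IM72h and none at 0. The summed level of the 7 class II genes was 375 to 427 CPM in naïve mice, 458 to 664 at IM3h, 380 to 751 at IM24h and 1523 to 2258 at IM72h. Class II level per macrophage marker was thus 1.63 to 1.69 in naïve mice, 2.36 to 2.96 at IM3h, 0.716 to 0.960 at IM24h and 0.909 to 1.52 at IM72h. All libraries were above the naïve range at IM3h and below it at IM24h and IM72h. The 3 complement genes *C1qa*, *C1qb* and *C1qc* made up 39.3% to 45.9% of the list in naïve mice and 70.5% to 72.9% at IM72h. Without them, a choice made after seeing the data, the ratio was 2.69 to 3.13 in naïve mice, 4.72 to 5.54 at IM3h, 1.77 to 2.38 at IM24h and 3.23 to 5.17 at IM72h. The direction at IM72h therefore turned with these 3 genes, whereas that at IM3h and IM24h did not. Over *Csf1r* alone, the receptor for macrophage growth factor, the ratio was 8.01 to 9.81 in naïve mice and above it in every later *ME* library, at 10.3 to 22.1.

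In *RiboTag* libraries the macrophage list summed to 104 to 189 CPM in naïve mice, 80.8 to 163 at IM3h, 188 to 313 at IM24h and 272 to 638 at IM72h. None of its genes passed at IM3h or IM24h (edgeR, adjusted p), and at IM72h *C1qa* was higher and *Cd163* lower. At IM72h *Cd68* and *Cd163* were at 0 in all libraries, and *Cd68* also in naïve mice. *Cd163* passed the filter on low counts through the naïve libraries alone, so its call gives no support beyond the counts. Class II level per macrophage marker was 1.47 to 2.04 in naïve mice, 0.971 to 1.69 at IM3h, 0.286 to 0.583 at IM24h and 0.192 to 0.374 at IM72h. At IM24h and IM72h all libraries lay below the naïve range, also without the complement genes and over *Csf1r* alone. The IM3h libraries overlapped the naïve range with the full list but lay below it without the complement genes, at 1.32 to 2.52 against 2.91 to 3.55, and over *Csf1r* alone, at 1.88 to 4.84 against 5.03 to 7.22. Per library total, the *RiboTag* level of the macrophage list was 1.27 times its *ME* level in naïve mice and 0.122 times at IM72h, and that of the 7 class II genes 1.36 and 0.0275 times. With reference genes as the scale the naïve ratios turned to below 1, at 0.796 for the macrophage list and 0.848 for the class II genes. The part of macrophage RNA in the class II values of either fraction was not tested.

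**Figure D5:**
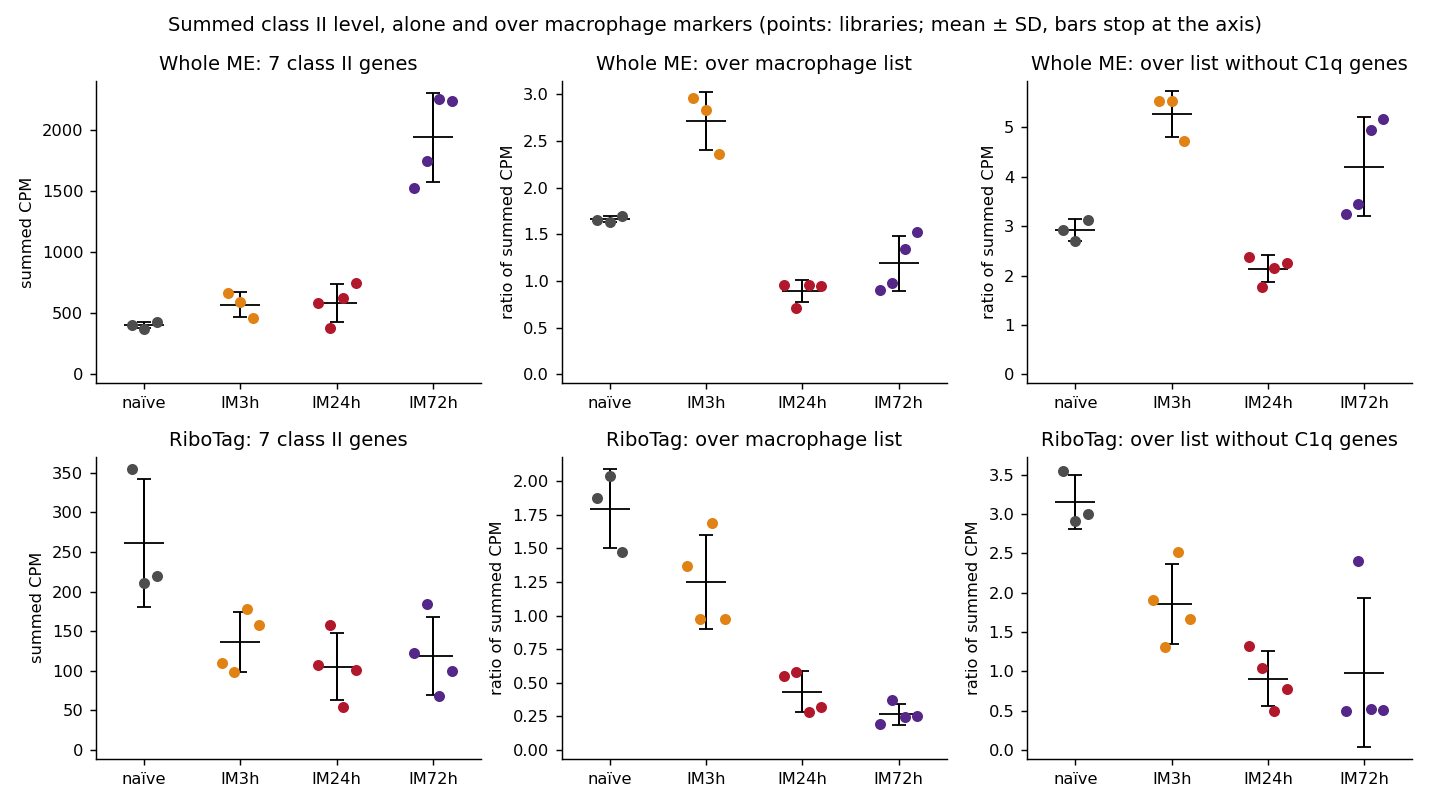
Summed CPM of the 7 class II genes and its ratio to the summed macrophage markers, with and without the 3 C1q genes, by group in *ME* (top) and *RiboTag* RNA (bottom). Points are libraries, lines and bars mean and SD. In *ME* the ratio at IM72h is below the naïve range with the C1q genes and above it without, and in *RiboTag* libraries it is below in both cases at IM24h and IM72h.

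Markers of other cell types were summed in the same way. In *ME* RNA the 8 dendritic cell markers summed to 8.69 to 10.8 CPM in naïve mice and 29.7 to 42.0 at IM72h, with 5 of 7 tested called higher. The 5 monocyte markers went from 38.4 to 45.3 CPM up to 151 to 201, with 5 of 5 called higher. The 7 B cell markers summed to 3.02 to 4.30 CPM in naïve mice and 5.96 to 6.75 at IM72h, with 1 of 2 tested called higher, and the 8 T and NK cell markers to 3.14 to 3.86 and 7.55 to 9.67, with 3 of 5. Of 7 neutrophil markers 6 of 6 tested were higher, of 8 glial markers 5 were higher and 1 lower, of 6 endothelial markers 5 were higher, and of 9 epithelial markers 2 were higher. The epithelial list summed to 67.8 to 206 CPM at IM24h, with 3 markers called lower, and to 204 to 528 at IM72h. In *RiboTag* RNA 3 of 9 epithelial markers were lower at IM3h (*Krt19*, *Lypd8* and *Muc2*) and 3 at IM72h (*Krt19*, *Krt20* and *Muc2*), 2 of 4 endothelial markers tested were lower at IM72h, and 4 of 7 B cell markers were not listed. The epithelial and endothelial markers called at IM72h had means of 0 to 0.109 CPM there. They passed the filter on low counts through the naïve libraries alone, so these calls give no support beyond the counts. Of the 8 glial markers 3 were lower and 1 higher at IM3h, with a median log2 fold change of -0.54. At IM24h the list had a median of -1.03, and at IM72h *Sox10* was lower, with a median of -2.90 over the list. Monocyte markers in *RiboTag* RNA summed to 19.8 to 23.0 CPM in naïve mice, 33.7 to 87.4 at IM24h and 53.9 to 120 at IM72h. Neutrophil markers summed to 2.48 to 6.18, 10.4 to 48.9 and 0.613 to 70.9 CPM. By edgeR 0 markers of either list were called at these times. The part of any of these lists in the class II values was not tested.

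Among other class II chains, *H2-DMb2*, a second beta chain gene of H2-M, rose in *ME* RNA at IM72h from 0.752 ± 0.481 to 9.40 ± 1.88 CPM (SD, n = 3 and 4), a log2 fold change of 3.75 ± 0.38 (adjusted p = 1.45e-05). It was 1 of 2 genes of this list that could be tested there. Endosomal proteolysis, which cuts antigens and the invariant chain, rose with all 7 genes tested. The largest changes were those of *Lgmn*, asparagine endopeptidase, at 2.07 ± 0.21 (adjusted p = 1.71e-05), *Ctsh* at 1.74 ± 0.12 (adjusted p = 1.39e-06), *Ctss*, the protease that trims the invariant chain, at 1.70 ± 0.18 (adjusted p = 2.08e-05) and *Ctsb* at 1.02 ± 0.11 (adjusted p = 1.92e-05). The median over this list was 1.02. *Ctss* was highest at IM24h, at 285 ± 83.0 CPM against 36.01 ± 2.37 in naïve mice and 119 ± 28.6 at IM72h, and was lower at IM72h than at IM24h by -1.29 ± 0.23 (adjusted p = 0.00136). At IM3h 4 of 7 genes of this list were higher, *Ifi30* by 1.14 ± 0.18 (adjusted p = 0.00102), *Ctsl* by 0.68 ± 0.11 (adjusted p = 0.00101), *Ctss* by 0.57 ± 0.13 (adjusted p = 0.0073) and *Ctsb* by 0.49 ± 0.10 (adjusted p = 0.00455).

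Genes of the interferon gamma input to *Ciita* were mostly higher in *ME* RNA. Of 7 tested, 6 were called higher at each time point, and at IM72h the kinase gene *Jak2* was lower, by -0.88 ± 0.17 (adjusted p = 0.00127). *Irf1*, a transcription factor induced by interferon gamma, went from 46.2 ± 1.71 CPM in naïve mice to 253 ± 82.4 at IM3h, 112 ± 28.6 at IM24h and 141 ± 30.5 at IM72h. Its change was 2.498 ± 0.207 at IM3h (adjusted p = 1.44e-05), 1.28 ± 0.20 at IM24h (adjusted p = 0.00141) and 1.58 ± 0.18 at IM72h (adjusted p = 2.76e-05). The receptor gene *Ifngr1* was higher by 1.34 ± 0.19 at IM24h (adjusted p = 0.000648) and 1.42 ± 0.15 at IM72h (adjusted p = 1.64e-05). *Ifng* itself was too low to be tested in any comparison.

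Of the 7 factors that bind class II promoters, 3 were higher and 1 lower in *ME* RNA at IM72h, *Nfya* by 1.505 ± 0.216 (adjusted p = 0.000153), *Rfxank* by 0.91 ± 0.20 (adjusted p = 0.00289) and *Rfxap* by 0.51 ± 0.15 (adjusted p = 0.0139), against *Nfyb* by -0.36 ± 0.13 (adjusted p = 0.0318). *Nfyb* had been higher at IM3h, by 1.24 ± 0.13 (adjusted p = 6.93e-05). All 3 genes of surface turnover were higher at IM72h, *March1*, the ubiquitin ligase that removes class II from the surface, by 1.68 ± 0.32 (adjusted p = 0.00103), *Cd83*, which counters it, by 1.48 ± 0.25 (adjusted p = 0.000492) and *March8* by 0.48 ± 0.13 (adjusted p = 0.00932). Of 5 costimulation genes tested, 3 were higher, *Cd86* by 1.74 ± 0.29 (adjusted p = 0.000412), *Cd40* by 1.58 ± 0.32 (adjusted p = 0.00153) and *Icosl* by 1.53 ± 0.34 (adjusted p = 0.00276).

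In *RiboTag* RNA few genes of these lists passed. At IM3h *Irf1* was higher, from 51.3 ± 9.58 to 134 ± 8.03 CPM (SD, n = 3 and 4), a change of 1.44 ± 0.24 (adjusted p = 0.00218), and so was *Jak1*, by 1.34 ± 0.26 (adjusted p = 0.00627), while *Ctsh* was lower by -2.03 ± 0.33 (adjusted p = 0.00208). *Ctss* was higher at IM24h, from 12.6 ± 7.46 to 97.6 ± 53.7 CPM, by 2.96 ± 0.57 (adjusted p = 0.0424), and at IM72h, by 3.42 ± 0.80 (adjusted p = 0.0196). At IM72h *Rfxap* and *Jak2* were lower (adjusted p = 0.0129 and 0.0208), both at or near 0 counts. Both passed the filter on low counts through the naïve libraries alone, so these calls give no support beyond the counts. Of the lists of other class II chains, surface turnover and costimulation 0 genes passed in any *RiboTag* comparison.

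Profiles most like the mean of the 7 genes were sought by the root mean square difference of centred log2 CPM. Over the 14 *ME* libraries the nearest of 17919 genes outside the 7 were *Ppic* at 0.220, *Irak2* at 0.273, *Naip5* at 0.283, *Gngt2* at 0.288 and *Casp8* at 0.294, against a median of 1.03 for all genes. *H2-Aa* was at 0.247 on this scale and *H2-Eb1* farthest of the members at 0.7096. Over the 15 *RiboTag* libraries the nearest of 17930 genes included *Elob* at 0.46604, *B2m*, the light chain of MHC class I, at 0.552, *Zbtb20* at 0.641 and *Tnrc6c* at 0.659, against a median of 1.84, and the members themselves stood at 0.770 to 1.88. The libraries of a fraction share depth and the line differences given above.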

How the data were processed

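The authors prepared QuantSeq 3′ libraries, aligned reads to mm10 with STAR and deposited estimated counts per transcript or gene, unscaled, from Partek Flow. Their own comparison tables (p-values, FDR, fold changes, group means) were not used. Groups were read from the treatment entry of each table line, since line names match no sample label. Libraries are numbered in order of these names, and 3 naïve *RiboTag* libraries were in the tables where the labels list 4. Tables list only features with at least 10 counts in all. Transcript counts were summed by symbol and rounded, and the gene table was used for *ME*.

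Each comparison was fitted on all genes with filterByExpr and TMM scaling in R 4.3.3, using edgeR 4.0.16, which loads limma 3.58.1, by a two-sided quasi-likelihood test and Benjamini-Hochberg adjustment at 0.05. DESeq2 1.42.0, RLE, library total, no scaling, 3 reference genes (*Actb*, *Hsp90ab1*, *Rplp1*), no filter, removal of 4 rRNA-derived genes, 1 fit of all groups, *ME* transcript counts and leaving out each library were alternatives. The code was tested on simulated data. A group with at most 3 counts in every library was set to 3 counts. Bounds cover counting error only. The 7 genes and all lists were chosen with earlier results of these data known. From each pathway list, genes with an adjusted p under 0.05 could be named, at most the 4 with the largest change per comparison, and the 5 non-members with the nearest profile per fraction. From each marker list at most 3 genes of highest CPM could be named. *Sox10*, *Cd68*, *Cd163*, *Csf1r*, the C1q genes and the glial and epithelial markers with calls were singled out after their values were seen. Some genes that this rule names are not reported here.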

Additional observations from a re-analysis of the deposited data

Results flagged for a closer look

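In 5 of 35 sets of 4 libraries, 1 library stood apart from the others by Dixon's criterion, which chance meets in about 1 in 20 sets. *H2-Aa* was at 49.9 CPM in *RiboTag* IM72h library 2, against 4.90 to 6.69 in the others. *Ciita* was at 8.64 CPM in *RiboTag* IM24h library 1, against 0 to 0.441. *H2-DMa* was at 6.84 CPM in *RiboTag* IM24h library 4, against 0 to 0.25. In *ME* RNA both genes were highest in IM24h library 4, *Ciita* at 16.6 CPM against 5.27 to 7.19 and *H2-DMa* at 28.3 CPM against 13.4 to 14.1.

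The change at IM72h differed between *RiboTag* and *ME* RNA for 6 genes by the interaction test in edgeR. The log2 differences were -4.48 for *H2-Aa* (adjusted p = 0.00722), -2.86 for *H2-Ab1* (adjusted p = 0.00572) and -4.24 for *Cd74* (adjusted p = 0.0233). The fitted values of -7.70 for *H2-Eb1* (adjusted p = 0.000577), -10.17 for *Ciita* (adjusted p = 0.0006) and -11.60 for *H2-DMa* (adjusted p = 0.000503) depend on how counts of 0 are treated and are no bounds.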

How the results depend on the processing

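Counts of called class II genes moved with the following choices, and the cause was not tested. Counts over all genes moved as well, in *ME* RNA at IM24h from 2554 to 6265 called higher with library totals. In *RiboTag* RNA at IM3h, where 0 were called, library totals and the threshold of the study gave 2 each. At IM72h, where 3 were called, no filter gave 0 and 1 fit of all groups gave 1. In *ME* RNA at IM3h, where 5 were called, the threshold of the study, library totals and no scaling gave 0, reference genes 1 and 1 fit of all groups 2. At IM24h, where 3 were called, library totals gave 6 and reference genes 1, and between IM72h and IM24h reference genes gave 3 instead of 5. For the interaction at IM3h DESeq2 gave 3 and the threshold of the study 5 instead of 0, and at IM24h DESeq2 gave 1, no scaling 2, library totals 3 and the threshold of the study 6 instead of 0. Leaving out single libraries gave 0 to 1 in *RiboTag* RNA at IM3h, 0 at IM24h and 0 to 4 at IM72h. It gave 0 to 5 in *ME* RNA at IM3h, 1 to 5 at IM24h and 6 to 7 at IM72h. It gave 0 to 1, 0 to 2 and 5 to 6 for the interactions, in order of time.

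Directions turned for changes that had not passed. In *RiboTag* RNA at IM72h *H2-DMb1* stood at -1.77 with library totals, -2.17 without scaling, -1.34 with reference genes and -0.63 to 0.57 without single libraries. In *ME* RNA at IM24h *H2-Ab1* stood at -0.059 and *Cd74* at -0.0067 with reference genes, and *H2-Eb1* at -0.27 to 0.58 without single libraries. Between IM72h and IM24h in *RiboTag* RNA *H2-Ab1* stood at -0.094 with library totals and -0.56 without scaling, *H2-DMb1* at -0.14 and -0.46, *Cd74* at 0.22 with DESeq2, 0.21 with RLE and -1.32 to 0.62 without single libraries, and *H2-Aa* at -1.70 to 0.10. In *ME* RNA *Ciita* stood at 0.51 without scaling, 0.051 without a filter, 0.020 with 1 fit and -0.20 to 0.49 without single libraries.

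No paired analysis was possible because the names in the tables carry none of the replicate numbers of the labels. *RiboTag* libraries at IM72h had the least depth, so that an absence of *Ciita* or *H2-DMa* there allows up to 3 counts per library and does not show that they were not expressed.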
